A study of Mus musculus with 6 samples.

Results

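The genes of the BCL2 family set whether a T cell progenitor lives or dies, and 10 of them were examined in a list of open chromatin from Beko cells, a mouse pre-T cell line. They were chosen by name and role. Bcl2, Bcl2l1 and Mcl1 were taken as the 3 pro-survival genes, and Bcl2l11, Bbc3, Bid, Bad, Pmaip1, Bax and Bak1 as the 7 pro-death genes. A peak, that is a stretch of DNA open to the transposase, was counted for a gene when it met the gene body or the 50 kb to either side. Own-start peaks are those no more than 1 kb from where some annotated transcript of the gene begins. The 10 windows did not overlap and held 75 of the 32527 peaks of the list. They are set beside the windows of 22380 protein-coding genes.

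Accessibility was measured by ATAC-Seq in 6 libraries, 3 from cells treated for 24 h with the gamma-secretase inhibitor DAPT (GSI), which blocks the release of the active NOTCH fragment, and 3 from cells given the solvent DMSO for 24 h. All libraries came from the same line, with no genetic change named in the labels, and nothing states that the replicates of a treatment were separate cultures. The authors merged them into 1 list of positions in mm9, which carries no heights and no values for single libraries. A difference between GSI and DMSO, the spread between replicates and the depth behind a peak were therefore not measurable here. Every value below describes the list drawn from both treatments together. A peak needed only 3 of the 6 libraries, so it may come from 1 treatment alone. Of 8 marker genes of progenitor T cells, 7 had an own-start peak (Cd3e, Ptcra, Rag1, Lck, Bcl11b, Tcf7 and Notch1, but not Cd3d), against 0 of 4 B cell markers and 1 of 4 myeloid markers (Spi1).

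BCL2 family proteins meet at the outer membrane of mitochondria. BAX and BAK, when activated, form pores there through which cytochrome c escapes and starts the caspase cascade. BCL2, BCL-XL (the product of Bcl2l1) and MCL1 hold them in check, and the BH3-only proteins BIM (Bcl2l11), PUMA (Bbc3), NOXA (Pmaip1), BID and BAD relay stress signals by binding the pro-survival proteins or by activating BAX and BAK. In thymocytes BCL2, BCL-XL and MCL1 sustain survival at different stages, and BIM is required for the deletion of self-reactive cells.

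An own-start peak was found for 9 of the 10 genes, whereas 46.9% of all protein-coding genes had such a peak. The exception was Pmaip1. More than 1 own-start peak was found at Bcl2l11, Bbc3 and Bid with 2 each and at Bad with 3, so at 4 of the 10 genes. Of all protein-coding genes, 5.73% had 2 or more. The 4 genes have 6, 3, 5 and 5 annotated starts in that order, and more starts give more room for such peaks. Bcl2l1 with 10 starts and Bak1 with 5 had 1 own-start peak each. The share of coding genes was not matched for the number of starts. The widest own-start peak of each of the 9 genes ran from 825 bp at Bax to 1624 bp at Bak1, beside a median of 926 bp (quartiles 746 and 1135 bp) over the 10506 coding genes with such a peak. Those of Bak1, Bbc3, Bad, Mcl1 and Bcl2l1, at 1624, 1555, 1543, 1392 and 1370 bp, lay above the upper quartile. Those of Bcl2l11 (1125 bp), Bcl2 (1074 bp) and Bid (1010 bp) lay between the quartiles, as did that of Bax. Peak width is not a measure of signal, and the list gives no heights. Nearest to the 1 kb limit, a peak counted as own-start lay 614 bp from a Bid start and another lay 522 bp from a Bad start, while the first ones beyond it lay 1242 bp (Bid) and 1379 bp (Bad) away.

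**Figure D1:**
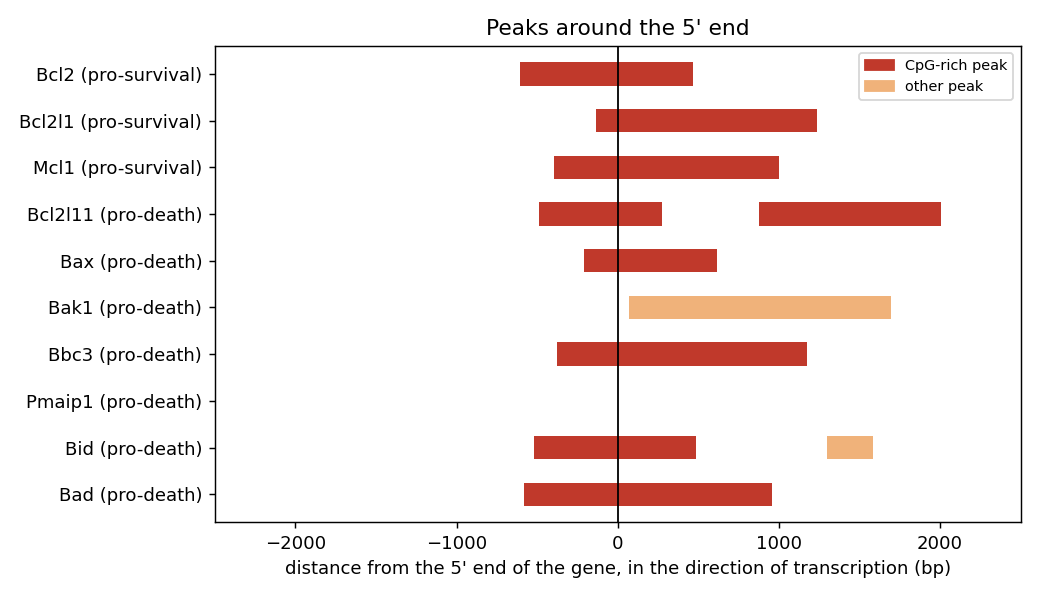
All peaks near the annotated 5′ end of each gene, drawn to scale with the distance from the 5′ end in bp along the x axis, 1 line per gene and CpG-rich peaks in the darker colour. The peak of Bak1 begins 71 bp inside the gene, at 8 genes a peak crosses the 5′ end, and Pmaip1 has none. Own-start peaks farther inside Bbc3, Bid and Bad are not drawn.

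The DNA just upstream of the genes is shown for 7 of the 9 genes, because it is the stretch of each peak where regulators of transcription start most often bind. Each line holds 120 bases from inside the own-start peak, at most 300 bp upstream of the 5′ end and outside every annotated exon. Within these limits the bases were placed where most of the motifs searched were found, so the matches show what lies there and are no measure of how common a motif is. The stretches are written 5′ to 3′ in the direction of the gene from the mm9 assembly. Capitals mark matches on either strand to short motifs: GGGCGG, the core bound by SP factors, TGGGAA, the core bound by RBPJ, the DNA-binding partner of NOTCH, CAGCTG, an E box, and GTAAACA, the forkhead core bound by FOXO factors.
Bcl2, chr1:108610989-108611108, minus strand: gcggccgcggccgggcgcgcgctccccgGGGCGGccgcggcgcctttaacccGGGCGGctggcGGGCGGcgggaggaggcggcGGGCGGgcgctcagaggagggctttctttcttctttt
Mcl1, chr3:95462523-95462642, plus strand: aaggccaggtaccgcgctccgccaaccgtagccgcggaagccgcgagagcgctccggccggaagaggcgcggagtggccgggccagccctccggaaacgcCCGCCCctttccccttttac
Bcl2l11, chr2:127951474-127951593, plus strand: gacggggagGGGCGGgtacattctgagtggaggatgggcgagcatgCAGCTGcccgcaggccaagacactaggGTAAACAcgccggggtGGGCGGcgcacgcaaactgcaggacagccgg
Bax, chr7:52722298-52722417, minus strand: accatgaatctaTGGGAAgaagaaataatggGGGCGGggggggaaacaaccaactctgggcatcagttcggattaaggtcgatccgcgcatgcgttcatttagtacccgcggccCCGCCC
Bbc3, chr7:16894840-16894959, plus strand: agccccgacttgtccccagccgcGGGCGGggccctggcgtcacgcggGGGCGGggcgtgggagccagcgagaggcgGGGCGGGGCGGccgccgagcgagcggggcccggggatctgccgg
Bid, chr6:120866872-120866991, minus strand: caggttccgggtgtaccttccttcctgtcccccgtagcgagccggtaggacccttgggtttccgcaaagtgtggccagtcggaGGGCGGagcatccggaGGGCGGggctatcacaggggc
Bad, chr19:7016216-7016335, plus strand: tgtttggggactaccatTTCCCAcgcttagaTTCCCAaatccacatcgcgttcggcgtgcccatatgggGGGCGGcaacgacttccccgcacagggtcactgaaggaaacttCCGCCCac
The stretches of Bcl2 and Bbc3 each show 4 GGGCGG, that of Bax shows 1 TGGGAA and that of Bad 2. That of Bcl2l11 shows 1 GTAAACA and 1 CAGCTG. No stretch is given for Bak1, whose peak begins downstream of the 5′ end, or for Bcl2l1, whose peak reaches only 132 bp upstream of it and held none of the motifs there.

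Over an equal length, the 300 bp upstream of the 5′ end, GGGCGG occurred in 9 of the 10 genes, all but Bcl2l1, and in 40.9% of protein-coding genes. GGGCGG itself holds a CpG, and these shares were not matched for CpG content. TGGGAA occurred in 2 of 10 (Bax and Bad) and in 24.8% of coding genes. CAGCTG occurred in Bcl2l11 and Bak1 and in 13.7% of coding genes, and GTAAACA in the same 2 genes and in 3.46% of coding genes. Of these 300 bp stretches, 7 were CpG-rich, meaning at least 50% GC and at least 0.6 of the CpG sites expected from base composition (the CpG ratio). These 7 genes were Bcl2, Mcl1, Bcl2l11, Bax, Bbc3, Pmaip1 and Bad, and 6 of them had an own-start peak, beside 75.9% of the 8058 coding genes of that kind. The other 3, Bcl2l1, Bak1 and Bid, all had an own-start peak, beside 30.6% of 14321 coding genes. Bcl2l1 missed the cut by its GC of 46% and Bid narrowly by its CpG ratio of 0.561. At both, the own-start peak over the 5′ end was itself CpG-rich. The ratio of Bak1 was 0.17, and its own-start peak was not CpG-rich.

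Bcl2 encodes the founding member of the family, which protects mature T cells and early progenitors. Its gene lies on the minus strand at 108434755 to 108610851 of chromosome 1, and its window of 276.1 kb was the longest of the 10. The window held 5 peaks, or 1.81 per 100 kb, and 42.6% of coding genes had a sparser window. The own-start peak at 108610383 to 108611456 (1074 bp) was CpG-rich, with 67.6% GC and 9 GGGCGG. A peak of 1436 bp, the widest in the window, lay at the start of Kdsr, an enzyme of sphingolipid synthesis. A pair of narrow peaks of 366 and 531 bp lay past the 3′ end, centred 202 and 198 kb from the 5′ end.

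The single peak inside the Bcl2 gene lay in intronic sequence at 108584234 to 108585100 (867 bp), centred 26.2 kb from the 5′ end. It held 6 TGGGAA sites. Of the whole list, 11 peaks (0.0338%) held as many, and 12.3% held 2 or more. Its length gives more room for matches than a short peak has. A match to the motif is not binding, and RBPJ occupancy was not examined here. The 300 bases with 4 of these sites are printed because no other peak in the 10 windows held so many, a choice made after the counts were seen, with TGGGAA or its reverse complement in capitals.
Bcl2, chr1:108584266-108584565, minus strand: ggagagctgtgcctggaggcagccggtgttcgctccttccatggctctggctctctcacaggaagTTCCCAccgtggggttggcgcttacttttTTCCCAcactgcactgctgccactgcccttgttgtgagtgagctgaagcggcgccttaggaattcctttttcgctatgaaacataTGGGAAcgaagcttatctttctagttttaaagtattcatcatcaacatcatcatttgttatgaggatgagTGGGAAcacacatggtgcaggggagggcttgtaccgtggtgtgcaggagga
No 2 of the 6 sites faced each other head to head at a spacing of 15 to 17 bases, the arrangement known for paired NOTCH complexes. Such pairs were found in 0 of the 75 peaks and in 58 peaks (0.178%) of the list.

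Bcl2l1 encodes BCL-XL, which keeps CD4+ CD8+ thymocytes alive. Its window of 164.4 kb on chromosome 2 held 12 peaks, a count that 96.8% of coding genes did not reach. At 7.3 per 100 kb the window was denser than that of 91.3% of coding genes. Its own-start peak, 152656227 to 152657596 (1370 bp), was CpG-rich and held 1 TGGGAA. The gene itself, 64.41 kb long on the minus strand, held 5 further peaks, centred 15.4, 27.1, 37.1, 42.3 and 63.9 kb from the 5′ end. None of these 5 was CpG-rich, with CpG ratios from 0.13 to 0.333. The 4 nearest to the 5′ end held 4, 3, 3 and 2 CAGCTG, and the fifth held none. A further 2 peaks lay at Id1, an inhibitor of E proteins, and 1 at Tpx2, a mitotic spindle factor.

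Mcl1 encodes a short-lived pro-survival protein that T cells need throughout their development. Its gene is short (4.457 kb, plus strand of chromosome 3), and its window held 5 peaks, or 4.79 per 100 kb. At 95462250 to 95463641 its own-start peak (1392 bp) was wider than the widest own-start peak of 90.7% of the coding genes with one. It was CpG-rich with 7 GGGCGG. All 4 other peaks lay downstream, centred 10, 15.7, 17.1 and 49 kb from the 5′ end, and were 331 to 730 bp wide. For each of the 4 the nearest coding start was that of Adamtsl4, so which gene they belong to was not tested.

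Bax and Bak1 encode the pore-forming effectors. The Bax window on chromosome 7 held 6 peaks, 5.7 per 100 kb, among 8 other coding genes. Only 1 of the 6, a peak of 354 bp inside Dhdh 10.4 kb upstream, lay away from every start. The own-start peak at 52721654 to 52722478 (825 bp) was CpG-rich and held 2 TGGGAA and 5 GGGCGG. The other 4 lay at the starts of Gys1 and Ruvbl2, Gys1, Ftl1 and Nucb1. The widest of them, 1226 bp, was at Ftl1, the ferritin light chain gene.

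The Bak1 window on chromosome 17 held 12 peaks at 11 per 100 kb, a density that 98.9% of coding genes did not reach. At 27164260 to 27165883 stood the own-start peak (1624 bp), which was the widest own-start peak of the 10 genes. It began 71 bp downstream of the 5′ end, and with a CpG ratio of 0.265 it was not CpG-rich. It held 2 TGGGAA and no GGGCGG, and it also lay within 1 kb of an annotated start of Ggnbp1, a gene that overlaps Bak1. Of the other 11 peaks, 4 lay at starts of Ggnbp1, Zbtb9 or Itpr3, an inositol trisphosphate receptor that releases calcium, and 7 lay away from starts. The widest of these 11 was a distal peak of 1278 bp inside Ggnbp1, centred 16.5 kb downstream of the Bak1 5′ end. The nearest coding start was that of Bak1 for 1 of the 12 peaks.

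**Figure D2:**
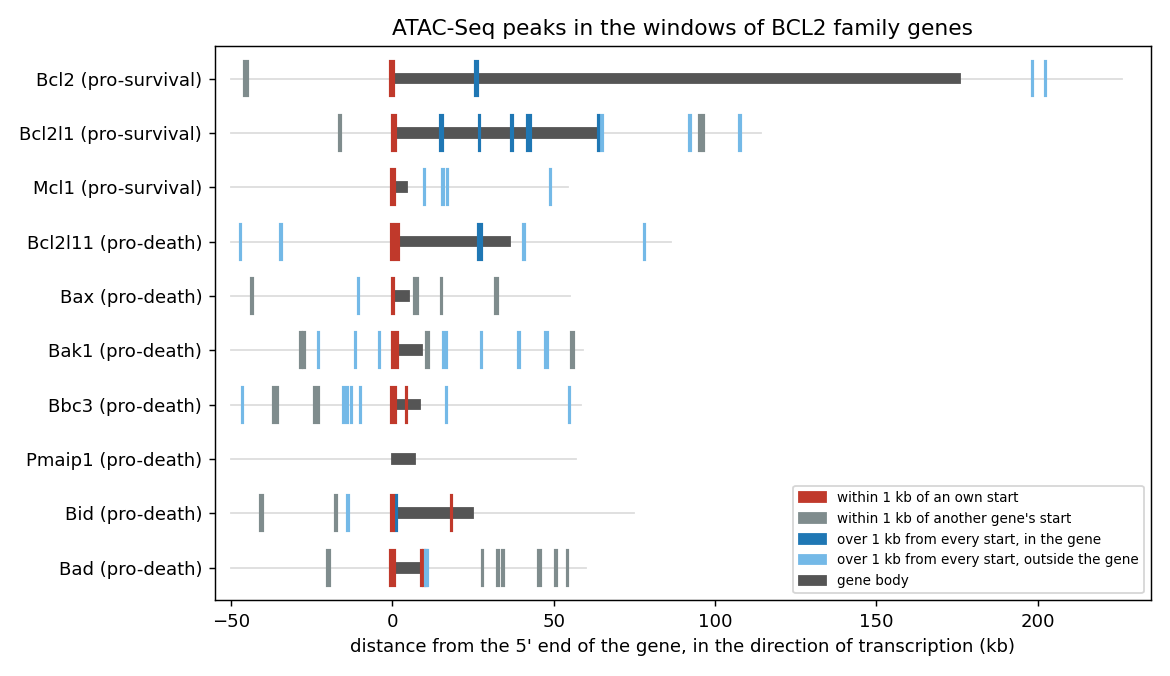
Peaks in the window of each gene, drawn to scale with the distance from the 5′ end in kb on the x axis and the gene running to the right. Peaks are coloured by whether they lie at an own start, at the start of another gene or over 1 kb from every start. The windows of Bcl2l1, Bak1 and Bad hold 12 peaks each and that of Pmaip1 holds none.

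Bcl2l11 encodes BIM, the BH3-only protein that deletes self-reactive thymocytes and responds to cytokine withdrawal and glucocorticoids. Its window on chromosome 2 held 7 peaks, 5.13 per 100 kb, and its own start was the nearest coding start of all 7. The 5′ end lay in a CpG-rich peak at 127951285 to 127952051 (767 bp), which held 2 GTAAACA and 2 CAGCTG. A second own-start peak of 1125 bp followed at 127952653 to 127953777 and was also CpG-rich. The widest of the remaining 5 was intronic, 1317 bp at 127978270 to 127979586, centred 27.2 kb from the 5′ end. A pair of peaks 47 and 34.5 kb upstream lay inside the neighbouring gene Acoxl, and peaks 40.8 and 78.1 kb downstream lay past the 3′ end.

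Bbc3 encodes PUMA, through which p53 kills thymocytes after DNA damage. Its window on chromosome 7 held 10 peaks at 9.21 per 100 kb, denser than 96.7% of coding genes. The own-start peak at 16894588 to 16896142 (1555 bp) held 14 GGGCGG and 1 GTAAACA, and a second of 404 bp, centred 4.46 kb into the gene, was CpG-rich too. Of the 6 distal peaks, 3 lay between 9.8 and 14.5 kb upstream. The peaks at 14.5 kb (1325 bp) and 9.8 kb (351 bp, 74.4% GC) were CpG-rich, which only 3 of the 38 distal peaks of the 10 windows were. The third such peak lay in the Bcl2l1 window, 108 kb downstream of the 5′ end. The widest peak of the window that was not at an own start, 1546 bp, lay at the start of Prr24. The p53 motif was searched only as a pair of exact decamers with no spacer. In that form it was found in none of the 75 peaks and in 3 of the list. A form this rare cannot show whether p53 sites are present or absent here.

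Bid encodes a BH3-only protein that caspases cut to pass death receptor signals to mitochondria. Its window on chromosome 6 held 6 peaks, 4.8 per 100 kb. The own-start peak at 120866384 to 120867393 (1010 bp) was centred 17 bp from the 5′ end and was CpG-rich with 4 GGGCGG. A second own-start peak of 531 bp lay 18.4 kb into the gene, by the start of an inner transcript, and was not CpG-rich. The widest other peak, 1122 bp, lay at a start of Mical3. A distal peak of 866 bp centred 13.7 kb upstream held 2 TGGGAA and 4 CAGCTG, but its nearest coding start was that of Mical3.

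Bad encodes a BH3-only protein that growth factor signals switch off by phosphorylation. Its window on chromosome 19 held 12 peaks at 10.9 per 100 kb, among 14 other coding genes, the most of the 10 windows. Its first own-start peak, 7015768 to 7017310 (1543 bp), was shared with the start of Gpr137. It held 5 TGGGAA, a count that 53 peaks (0.163%) of the list reached, 2 of them in these windows. Both TGGGAA sites of the printed Bad stretch belong to it. A further 4 peaks of 321 to 705 bp stood in a row from 7025200 to 7027500 over and past the 3′ end. The first 2 of them counted as own-start peaks because a shorter Bad transcript begins there. The remaining 7 lay at starts of other genes, and the widest was 928 bp at Vegfb, a growth factor gene.

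Pmaip1 encodes NOXA, which neutralises MCL1. Its window on chromosome 18 (gene body 66618258 to 66625204, plus strand, 106.9 kb in all) held no peak. Of all protein-coding genes, 22.8% had none. The nearest peak lay 91445 bp from the 5′ end. No base of the window was unsequenced in the assembly, and no other coding gene lay in it. The 300 bp upstream of Pmaip1 had 62.7% GC, a CpG ratio of 1.12 and 2 GGGCGG, so the stretch was CpG-rich. Of the 8058 coding genes with a CpG-rich upstream stretch, 6.95% had no peak in the window. A peak that passed in fewer than 3 of the 6 libraries would not be in the list, so the absence is not a measure of closed chromatin.

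Set side by side, the 3 pro-survival windows held 5, 12 and 5 peaks (Bcl2, Bcl2l1 and Mcl1), with a median of 5. The 7 pro-death windows held 7, 6, 12, 10, 0, 6 and 12 (Bcl2l11, Bax, Bak1, Bbc3, Pmaip1, Bid and Bad), with a median of 7. The ranges of both groups overlapped, and the median over all coding genes was 3 (quartiles 1 and 6). In all, 4 of the 10 genes (Bcl2l1, Bak1, Bbc3 and Bad) had 10 or more peaks, beside 7.59% of coding genes. Per 100 kb of window, the medians were 4.79 (1.81 to 7.3) for the pro-survival genes and 5.7 (0 to 11) for the pro-death genes. Over all coding genes the median was 2.381 (quartiles 0.5698 and 4.712). The order of the groups depended on what was counted. With peaks over 1 kb from every start the medians were 4 for pro-survival and 2 for pro-death genes, and within 10 kb of the gene body the densities were 8.18 and 7.94 per 100 kb. Without Bcl2 or without Mcl1 the pro-survival median count was 8.5, above that of the pro-death genes, and without Bcl2 the density was 6.04. No test was made between the groups, since genes are not replicates.

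**Figure D3:**
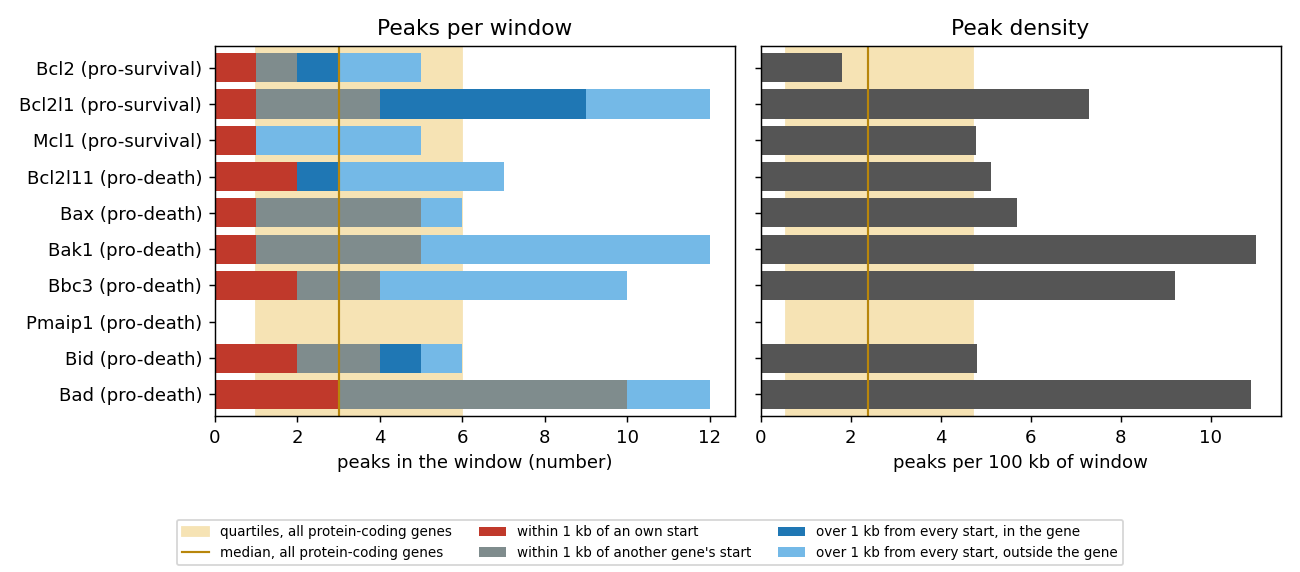
Number of peaks (left) and peaks per 100 kb of window (right) for each gene. The left bars are split into own-start peaks, other-start peaks and distal peaks inside or outside the gene. In both panels a solid line marks the median of all protein-coding genes and a shaded band their quartiles. The bars of pro-survival genes run from 5 to 12 peaks and those of pro-death genes from 0 to 12, so the groups overlap.

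The positions of the peaks are described group by group, with no test. Of the 22 peaks at pro-survival genes, 15 (68.2%) lay over 1 kb from every annotated start, 6 of them inside the gene, and Bcl2l1 alone held 8 of the 15. Of the 53 peaks at pro-death genes, 23 (43.4%) did so, 2 of them inside the gene. In the whole list 64.6% of peaks lay over 1 kb from every start. The starts of other genes held 4 of the 22 peaks (18.2%) at pro-survival and 19 of the 53 (35.8%) at pro-death genes, where Bad alone held 7. Gene length and neighbours moved with this. The pro-survival genes had a median length of 64.4 kb and 2 to 3 other coding genes in the window, and the pro-death genes had a median of 9.2 kb and 0 to 14. Their part in the split was not tested. Own-start peaks were CpG-rich in 3 of 3 cases at pro-survival and in 9 of 11 at pro-death genes, against 3 of 38 distal peaks of both. In the whole list 68.3% of peaks within 1 kb of a start and 2.94% of those farther away were CpG-rich. Distal peaks were nearest to the start of the gene itself in 5 of 15 cases and in 10 of 23.

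TGGGAA, the RBPJ core, was found in 35 of the 75 peaks (46.7%, Wilson 95% interval 35.8 to 57.8%), beside 42.5% of the list. Per kb of peak there were 0.898 sites in the 10 windows and 0.893 in the list. It was found in 4 of 14 own-start peaks (28.6%, interval 11.7 to 54.6%, at Bcl2l1, Bax, Bak1 and Bad), beside 48.4% of all peaks within 1 kb of a start. Of the distal peaks, 18 of 38 held it (47.4%, interval 32.5 to 62.7%), beside 39.2% of all peaks over 1 kb from every start. Both intervals include the share set beside them. Of the 75 peaks, 7 held 2 or more TGGGAA, beside 12.3% of the list. Those of the 7 nearest to the start of the gene itself were the intronic peak of Bcl2 with 6 and the own-start peaks of Bad with 5, Bax with 2 and Bak1 with 2. CAGCTG was found in 56% (interval 44.7 to 66.7%) and in 42.7% of the list. Its share was 35.7% of own-start peaks, beside 40.5% of all peaks within 1 kb of a start. In distal peaks it was 63.2%, beside 43.9% in the list. GGGCGG was found in 57.3% (46.1 to 67.9%) and in 38.7%. By class, 78.6% of own-start peaks held it, beside 76.6% of all peaks within 1 kb of a start. Of distal peaks 34.2% held it, beside 17.9% in the list. TGTGGT, the RUNX core, was found in 28% (19.1 to 39%) and in 41.4% of the list. By class its shares were 21.4% beside 34.1% at starts and 31.6% beside 45.5% in distal peaks. Distal peaks made up 50.7% of the window peaks and 64.6% of the list, so the shares over all peaks mix the classes unequally. GTAAACA was found in 14.7% (8.39 to 24.4%) and in 6.6%. At starts the shares were 28.6% and 6.51%, and in distal peaks 18.4% and 6.65%. These shares are over whole peaks, which had a median width of 649 bp in the 10 windows and 551 bp in the list. In the central 200 bp of distal peaks the shares in the windows and in the list were 2.63% and 2.5% for GTAAACA, 15.8% and 16.4% for TGGGAA, 34.2% and 25.7% for CAGCTG, 26.3% and 9.28% for GGGCGG, and 21.1% and 25.6% for TGTGGT. The intervals cover counting error only.

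TTCNNNGAA, the spaced pair of half-sites bound by STAT factors, was found in 9 of the 22 peaks (40.9%, 23.3 to 61.3%) at pro-survival genes. At pro-death genes it was found in 8 of 53 (15.1%, 7.85 to 27.1%), and 15.1% of the list held it. Of the motifs searched, this was the one whose shares lay farthest apart between the groups, so it is singled out by its values. Among distal peaks it was present in 6 of 15 and 1 of 23, beside 14.5% of all distal peaks of the list. Own-start peaks held it in 0 of 3 and 2 of 11 cases. Other peaks with the motif lay at starts of Kdsr, Id1 and Tpx2 (pro-survival windows) and of Gys1, Ftl1, Mical3, Esrra and Dnajc4 (pro-death windows). Distal peaks with it centred 198 and 26.2 kb (Bcl2), 37.1 kb (Bcl2l1) and 10.5 kb (Bad) from the 5′ end were nearest to the own start. Those at 202 kb (Bcl2), 42.3 kb (Bcl2l1) and 15.7 kb (Mcl1) were nearest to Phlpp1, Cox4i2 and Adamtsl4. In the Bcl2 window the motif was found in 4 of 5 peaks, all but the own-start peak. In the central 200 bp of distal peaks the counts were 3 of 15 (2 at Bcl2 and 1 at Mcl1) and 0 of 23, beside 5.32% of the list. The difference was not tested, since peaks of 1 window share their surroundings.

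**Figure D4:**
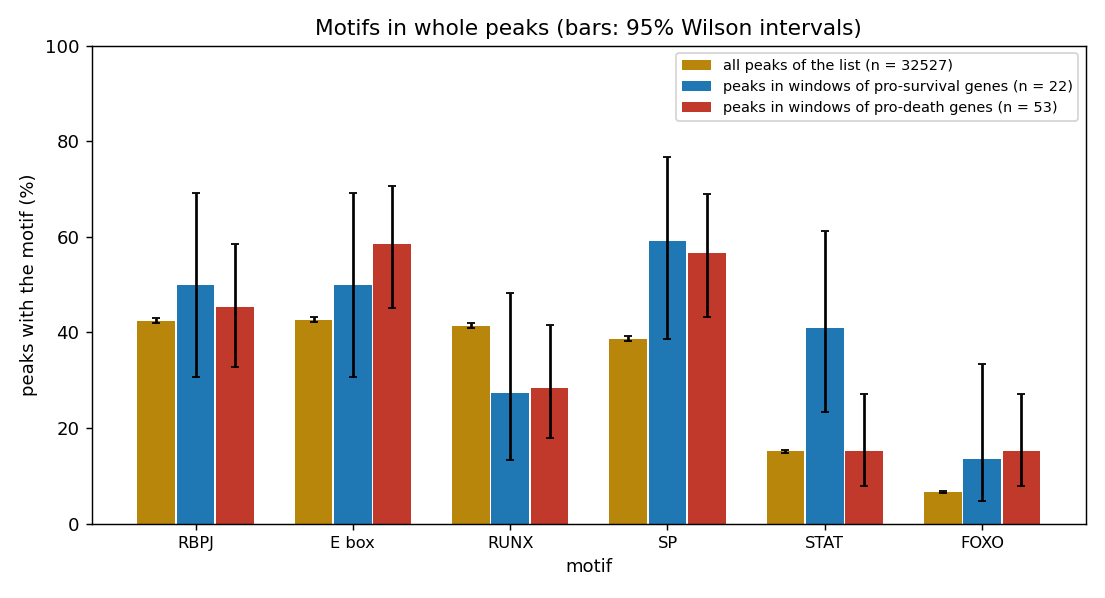
Share of peaks, in percent, with at least 1 match to each motif, for all 32527 peaks, the 22 peaks at pro-survival genes and the 53 at pro-death genes, with 95% Wilson intervals as error bars. The STAT motif is the motif for which the bars of both groups lie farthest apart, at 40.9% and 15.1%.

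Of 16 other family genes, 6 had an own-start peak, and their windows held a median of 3 peaks (0 to 8), or 2.69 per 100 kb. The Bcl2l13 gene overlaps Bid, and its window shares peaks with the Bid window, so its count is not separate from that of Bid. The 10 without one were Bcl2l2, Bcl2l10, Bcl2a1a, Bcl2a1b, Bcl2a1c, Bcl2a1d, the effector-like Bok, the BH3-only gene Hrk, and Bcl2l12 and Bcl2l15. Bcl2a1a and Hrk had no peak in the window. The Bcl2a1 genes are copies of similar sequence, and with 1 alignment kept per read their peaks are uncertain. Of 16 further genes linked to the mitochondrial death pathway, 13 had an own-start peak, with a median of 5 peaks (1 to 9) and 4.41 per 100 kb. The 3 without one were Cycs, which encodes cytochrome c, the ubiquitin ligase gene Birc2, whose nearest peak lay 1209 bp from a start, and the mitochondrial channel gene Vdac2. Birc5, which encodes survivin, Vdac1 and Aifm1 had the most peaks, 9 each. The windows of Birc2 and Birc3 overlap, so their counts are not separate either.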

How the data were processed

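ATAC-Seq was performed on Beko cells treated with GSI or DMSO, 3 libraries each, grouped by their labels. The labels and the methods give the DAPT dose in different units, so it is not stated here. The authors trimmed reads (trimGalore), aligned them to mm9 (HISAT2 2.2.1, with 1 alignment per read), discarded duplicates (Picard) and called peaks without an input (MACS2). Peaks present in 3 of 6 libraries were retained, and blacklisted regions were left out. A shift of read ends for the transposase is not given in the sources used here. The deposited list holds peak positions. The deposited score is 0 for every peak, and depth per library was not used here.

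Peaks were joined to GENCODE vM1 genes on NCBIM37, the same build, by an overlap of at least 1 bp, in Python 3.11.15 (numpy 2.4.6, matplotlib 3.10.9). Intervals of shares are Wilson 95% intervals (scipy 1.17.1). Motifs were searched on both strands. A palindromic site counted once, and overlapping matches all counted. The counting was tested on simulated data. Genes, lists and motifs were chosen with earlier results of these data known. Named were the 10 genes with their own-start peaks, the widest other peak of each window and peaks with 2 or more TGGGAA nearest to an own start, and, of the other pathway genes, those without an own-start peak and the 3 with most peaks. The comparison by CpG content of the upstream stretch and the search for paired sites were added after the values were seen. Alternatives were other windows, peak widths, start definitions and motif forms. The sequence of 1 further peak is not reported here.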

Additional observations from a re-analysis of the deposited data

How the results depend on the processing

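An own-start peak was found for 9 genes under all 6 alternatives tried (peaks of at least 500 bp, peaks within 1000 bp joined, starts within 5 kb, starts inside the peak, protein-coding transcripts only and the 5′ end only). The 75 peaks became 33 within 10 kb of the gene body, 114 within 100 kb, 38 when over 1 kb from every start and 29 when nearest to the gene's own start. In that order the median per window was 2, 8, 4 and 3 for pro-survival genes and 4, 14, 2 and 3 for pro-death genes. Density per 100 kb was 8.18, 3.91, 3.83 and 1.09 for pro-survival genes and 7.94, 6.82, 1.82 and 2.4 for pro-death genes. With peaks of at least 500 bp it was 1.91 and 4.4. Leaving out each gene in turn moved the median count from 5 to 8.5 for pro-survival genes, with 8.5 without Bcl2 or without Mcl1, and from 6.5 to 8.5 for pro-death genes. It moved the density from 3.3 to 6.04 and from 5.42 to 7.46. The share of peaks with TGGGAA was 61.3% with the degenerate form and 13.3% in the central 200 bp. Of 64 alternatives, 44 stayed within 1.5 times the value given, or for the share with TGGGAA within its 95% interval, and 20 did not.

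No paired analysis was possible because single libraries have no values in the merged peaks. For the same reason GSI was not compared with DMSO, and no library was left out. The list gives presence only, with neither height nor depth behind a peak.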
